A study of Mus musculus with 56 samples.

Results

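The libraries described here are the immunised mouse paws with the least neutrophil RNA, set against paws of mice that were never immunised. For every library a score was taken as the mean log2(FPKM + 1) of 5 genes of mature neutrophils, S100a8, S100a9, Cxcr2, Csf3r and Retnlg, where FPKM is fragments per kilobase of transcript, scaled to the mapped fragments of the library. The 4 libraries with the lowest score in each of 4 treatment groups were kept, which gave 16 of 52 immunised libraries, here called low-score paws, beside all 4 no CIA libraries of the 56 in the series. The comparison addresses which differences from no CIA paws are present where few neutrophils are. The 5 score genes are left out of all results, and other neutrophil genes are related to them.

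All mice were male DBA/1, a strain prone to collagen-induced arthritis (CIA), and RNA came from homogenised front paws on day 91. The immunised mice received chicken type II collagen on day 1 and day 21 and then, from day 21, intraperitoneal antibody 2 times a week for 5 weeks. The 4 treatments were an anti-TNF antibody (clone XT3.11, 30 mg/kg), an anti-IL-6 antibody (clone MP5-20F3, 10 mg/kg), the combination of both antibodies at those doses, and an isotype control antibody at 30 mg/kg, with 13 libraries each. The no CIA mice had neither immunisation nor antibody, so the contrast holds both. Paws were taken after the injections had ended.

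The label of quiet paws held in part. In order of score, the 4 libraries kept had scores of 2.00, 2.15, 3.00 and 3.92 under anti-TNF, 2.17, 2.47, 2.58 and 3.63 under anti-IL-6, 2.26, 2.59, 3.27 and 3.33 under the combination, and 1.78, 1.94, 2.52 and 3.50 under isotype. The no CIA libraries had scores of 1.70, 1.98, 2.22 and 2.51. So 7 of the 16 libraries lay at or below the highest no CIA score and 9 lay above it. The next library in each group, the first not kept, had a score of 4.18 under anti-TNF, 3.81 under anti-IL-6, 3.34 under the combination and 3.85 under isotype. The other 36 immunised libraries reached 7.35, and all of them lay above the no CIA libraries.

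**Figure D1:**
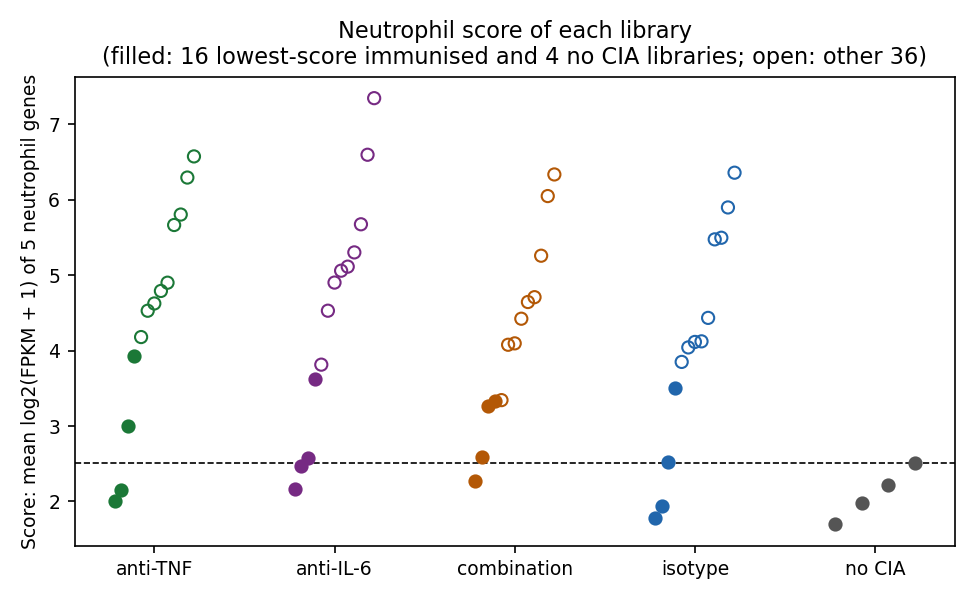
Neutrophil score (mean log2(FPKM + 1) of 5 genes) of every library by treatment group. Filled points are the 16 low-score and the 4 no CIA libraries, open points the other 36 immunised libraries, and the dashed line marks the highest no CIA score, 2.51.

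Estimated depth was 42.9 to 51.05 M fragments (M for mega) in the low-score libraries and 44.0 to 49.6 M in the no CIA libraries. Low-score anti-TNF replicate 9 stood apart in tissue makeup: it had the lowest median correlation with the other 19 libraries (0.956) and the highest score of the 16 libraries on 17 of 36 gene lists, among them fibrillar matrix, metalloproteinases and macrophages. The library titles give index numbers of 47 to 96 to the low-score libraries and of 41 to 44 to the no CIA libraries, and mouse numbers of 5 to 55 against 56 to 60, so these and immunisation cannot be told apart. Skeletal muscle genes were abundant in both sets, with list scores of 7.06 to 10.1 in low-score and 7.85 to 9.74 in no CIA paws, as were epidermal genes (7.46 to 8.65 and 7.45 to 8.71). In whole paw RNA, fewer cells of a type and less RNA per cell cannot be told apart.

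Type I interferons signal through a receptor whose kinases activate STAT2, which acts with IRF9 in a complex that binds interferon-stimulated response elements (ISREs) in promoters. The genes so induced include antiviral sensors and effectors, and several of the proteins that carry the signal. Most cell types of the mouse can switch these genes on, and high levels are known from blood and joints in autoimmune disease.

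The ISRE core, read as GAAA, 2 bases of any kind and GAAA again, was searched on both strands in RefSeq promoters of GRCm38.p6, which run from 250 bases before to 50 after each start site. It was present in 1131 of 32851 promoters (3.44%). Of the 17 genes that were higher in low-score than in no CIA paws, 14 had an entry, with 16 promoters, and the core was in 8 of these promoters, of 7 genes. These were Isg15, Ifit1, Oas1a, Bst2, Ifit3, Stat2 and Trim30a. Those genes were chosen by their values, so the count is a description. The stretches of 6 of them are shown because the core sits at different distances from the start site and in several copies; capitals mark the matches, which may overlap, and matches that begin with TTTC are the core on the other strand.
Isg15, chr4:156200860-156200911, minus strand: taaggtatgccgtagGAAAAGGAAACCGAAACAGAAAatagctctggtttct
Oas1a, chr5:120907515-120907560, minus strand: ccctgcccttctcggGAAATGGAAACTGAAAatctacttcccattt
Ifit1, chr19:34640770-34640828, plus strand: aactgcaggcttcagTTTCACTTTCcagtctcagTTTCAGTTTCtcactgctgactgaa
Bst2, chr8:71537572-71537617, minus strand: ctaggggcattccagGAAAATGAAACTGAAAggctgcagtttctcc
Ifit3, chr19:34583358-34583431, plus strand: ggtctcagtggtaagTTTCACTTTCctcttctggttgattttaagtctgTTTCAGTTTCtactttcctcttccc
Stat2, chr10:128270261-128270300, plus strand: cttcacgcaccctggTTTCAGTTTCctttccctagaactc
The promoters of Oasl2, Xaf1, Ifi202b, Trim34b, Irf9, Ifi44l and Rpl37rt held no match in this window, and Rtp4, Oas2 and Usp18 were not matched to an entry.

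Genes induced by interferon were higher in low-score paws than in no CIA paws, and few other genes passed the test. With limma on log2(FPKM + 1), 17 of 14459 genes tested were higher (0.118% of those tested) and 1 was lower (0.00692%) at an adjusted p under 0.05, and the median log2 difference over all genes was 0.00. Of the interferon-induced list of 35 genes, 29 passed the filter on low values, 13 of these rose, 0 fell, and all 29 had a positive difference. At an unadjusted p under 0.05 there were 28 of the 29, beside 806 of all genes tested. The list's median log2 difference was 0.59. Its library score, the mean over all 35 members, ran from 2.10 through a median of 2.28 up to 2.53 in low-score paws, and in no CIA paws it lay between 1.59 and 1.84. The ranges did not overlap. The list was chosen with earlier results of these data known, so its counts and score are a description and no independent support.

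Rtp4, an interferon-induced chaperone that helps certain receptors reach the cell surface, had 5.14, 7.00 and 9.64 FPKM as the lowest, median and highest value in low-score paws, against 1.76, 2.62, 3.00 and 1.79 FPKM in the 4 no CIA paws. Every low-score library lay above every no CIA library. The log2 difference was 1.29 ± 0.127 (SE, limma adjusted p = 0.000129). Oasl2, an interferon-induced member of the oligoadenylate synthetase family, had 3.47, 4.46 and 6.63 FPKM in low-score paws, against 0.980, 1.52, 1.82 and 0.955 FPKM in no CIA paws. The sets did not overlap here either, and the difference was 1.27 ± 0.137 (adjusted p = 0.000244).

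The oligoadenylate synthetases make the messenger that switches on the RNA-degrading RNase L when double-stranded RNA is present. Oas1a had 1.83, 2.86 and 4.51 FPKM in low-score paws, against 0.468, 0.544, 0.614 and 0.580 FPKM in no CIA paws. Oas2 had 1.46, 2.28 and 3.92 FPKM in low-score paws, against 0.605, 0.679, 0.862 and 0.518 FPKM in no CIA paws. Both sets were separate, with log2 differences of 1.32 ± 0.180 for Oas1a and 1.00 ± 0.127 for Oas2 (limma adjusted p = 0.00225 and 0.00136). Oas1a has close paralogs, so reads shared between copies make its level uncertain.

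RNA of genes for interferon-induced effector proteins was also higher. Isg15, a ubiquitin-like protein attached to other proteins, had 5.13, 7.23 and 10.9 FPKM in low-score paws, against 3.24, 2.40, 3.40 and 2.27 FPKM in no CIA paws (log2 1.07 ± 0.145, limma adjusted p = 0.00225). Usp18, which removes Isg15 and dampens receptor signalling, had 2.25, 3.06 and 4.02 FPKM in low-score paws, against 1.37, 1.67, 1.82 and 1.01 FPKM in no CIA paws (log2 0.72 ± 0.120, adjusted p = 0.0216). Bst2, also called tetherin, which holds budding virus particles at the cell surface, had 12.7, 17.7 and 26.9 FPKM in low-score paws, against 8.72, 9.78, 11.5 and 9.14 FPKM in no CIA paws (log2 0.80 ± 0.134, adjusted p = 0.0228). For these 3 genes the lowest low-score library lay above the highest no CIA library. Xaf1, a binding partner of the apoptosis inhibitor XIAP, had 8.33, 9.41 and 12.8 FPKM in low-score paws, against 5.81, 6.17, 5.72 and 5.26 FPKM in no CIA paws, again with no overlap (log2 0.70 ± 0.0967, adjusted p = 0.00257).

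Ifit1 and Ifit3 belong to a family that binds viral RNA or partners with members that do. Ifit1 had 1.25, 1.81 and 2.47 FPKM in low-score paws, against 0.650, 0.656, 0.915 and 0.578 FPKM in no CIA paws, with no overlap (log2 0.70 ± 0.0894, limma adjusted p = 0.00136). Ifit3 had 4.42, 6.06 and 8.53 FPKM in low-score paws, against 3.01, 4.61, 3.77 and 2.67 FPKM in no CIA paws (log2 0.66 ± 0.118, adjusted p = 0.0361). Here the sets overlapped, since 1 isotype library lay below no CIA replicate 2. Ifit3 has a close copy, Ifit3b, that could share its reads, and Ifit3b had a difference of 0.28 ± 0.152 (adjusted p = 0.979).

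Irf9 and Stat2, which carry the signal to the promoters, rose by less. Irf9 had 11.4, 14.5 and 18.4 FPKM in low-score paws, against 11.1, 10.0, 9.95 and 9.30 FPKM in no CIA paws (log2 0.49 ± 0.0902, limma adjusted p = 0.0400). Stat2 had 6.11, 7.41 and 9.28 FPKM in low-score paws, against 5.78, 5.89, 5.37 and 4.88 FPKM in no CIA paws (log2 0.41 ± 0.0778, adjusted p = 0.0488). Both lay above no CIA paws in all 16 libraries.

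Among the other genes that rose, Ifi202b, an interferon-inducible DNA-binding protein of the p200 family, had 16.2, 21.3 and 31.0 FPKM in low-score paws, against 11.6, 10.5, 13.6 and 11.3 FPKM in no CIA paws (log2 0.86 ± 0.152, limma adjusted p = 0.0361). Ifi44l, an interferon-induced gene, Trim30a and Trim34b, both of the TRIM family, had differences of 0.74 ± 0.137, 0.44 ± 0.0809 and 0.40 ± 0.0721 (adjusted p = 0.0403, 0.0400 and 0.0400). All 4 were separate from no CIA paws in every library. Ifi202b, Trim30a and Trim34b have close relatives in the mouse genome, so their counts are uncertain where reads are shared.

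Rpl37rt, a retrotransposed copy of a ribosomal protein gene that GENCODE classes as a transcribed processed pseudogene, had 33.6, 70.5 and 173 FPKM in low-score paws, against 32.2, 25.8, 20.2 and 26.7 FPKM in no CIA paws (log2 1.37 ± 0.256, limma adjusted p = 0.0452). The lowest low-score value and the highest no CIA value almost touch, and reads from the parent gene or other copies could be counted here. Pcsk4, a proprotein convertase best known from germ cells, was the gene that fell. It had 1.25, 1.69 and 2.03 FPKM in low-score paws, against 3.09, 2.71, 2.10 and 2.40 FPKM in no CIA paws, with no overlap (log2 -0.42 ± 0.0787, adjusted p = 0.0440).

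Counting by separation and not by the test, 41 genes lay above every no CIA library in all 16 low-score libraries (0.284% of those tested) and 2 lay below, Pcsk4 and Mknk2 (0.0138%). Of the 29 tested interferon-list genes, 16 were among the 41. Lgals3bp, a secreted galectin-binding protein, was separate at 13.4, 19.6 and 30.9 FPKM in low-score paws, against 7.93, 9.56, 11.8 and 8.51 FPKM in no CIA paws, and missed the threshold (log2 1.02 ± 0.197, limma adjusted p = 0.0512). Zbp1, a sensor of Z-form nucleic acid, was separate too, at 1.74, 2.84 and 5.69 FPKM in low-score paws, against 0.883, 1.12, 1.23 and 0.788 FPKM in no CIA paws (1.00 ± 0.198, adjusted p = 0.0602).

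**Figure D2:**
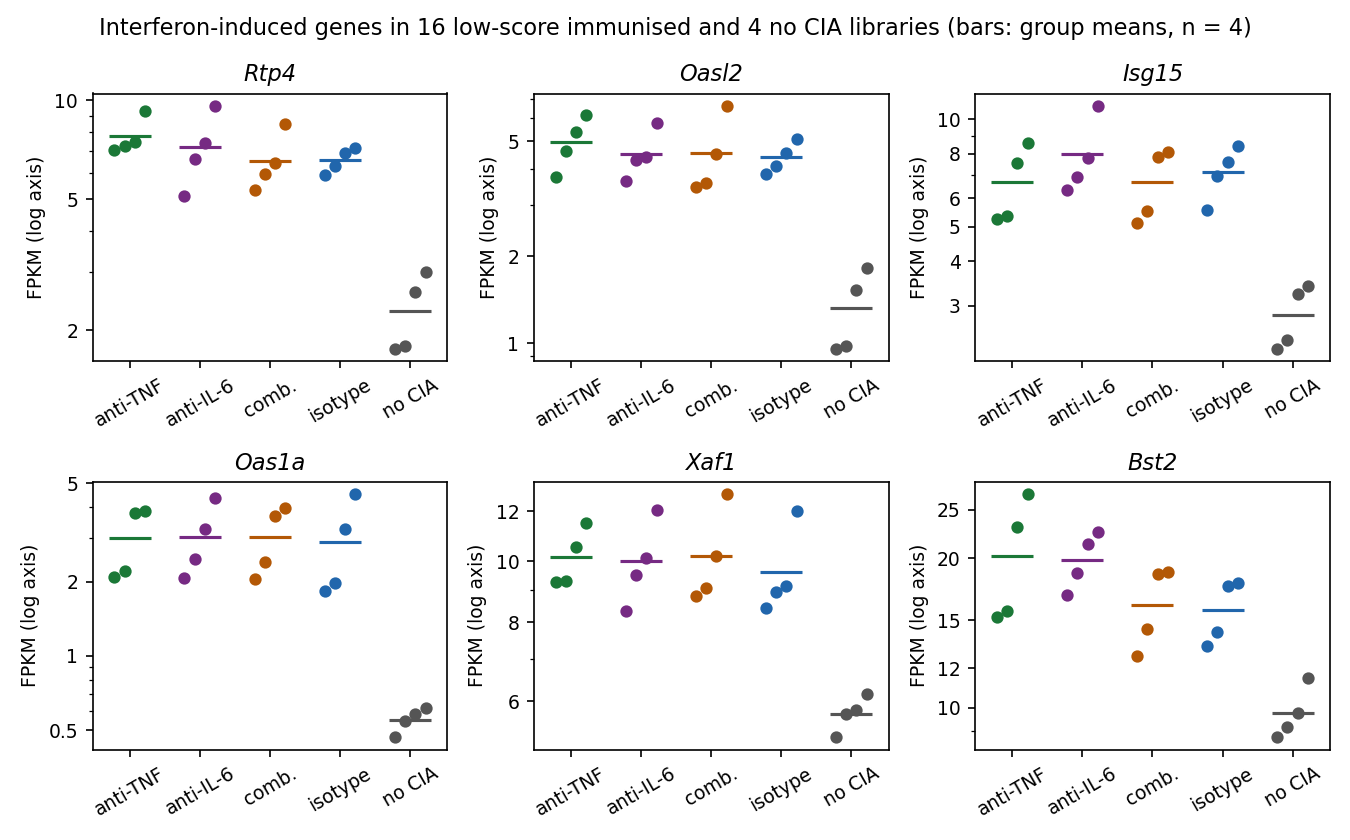
FPKM (log axis) of 6 interferon-induced genes in each low-score and no CIA library by group; bars are group means of 4 libraries. For all 6 genes every low-score library lies above every no CIA library, for example 5.14 to 9.64 against 1.76 to 3.00 FPKM for Rtp4.

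The counts moved with the choice of libraries and with the clock genes. Leaving out each of the 20 libraries in turn gave 7 to 26 genes higher, with 7 when no CIA replicate 1 or 4 was left out, and 20 higher and 1 lower when anti-TNF replicate 9 was. Rtp4, Oasl2, Ifit1, Oas2, Isg15, Oas1a and Xaf1 were called in all 20 of these fits. With the 7 libraries whose score was within the no CIA range, 7 genes were higher and 1 lower; the 7 were Rtp4, Oasl2, Xaf1, Bst2, Ifi202b, Zbp1 and Cd209f, and the lower one was Hba-a2, an alpha-globin gene. The 7 libraries were 2 anti-TNF, 2 anti-IL-6, 1 combination and 2 isotype libraries. The contrast weighs the 4 group means alike, so the 1 combination library counts as a whole group. The interferon list score was 2.10 to 2.52 (median 2.18) in these 7 libraries and 2.11 to 2.53 (median 2.36) in the other 9 low-score libraries. In no CIA paws it was 1.59 to 1.84 (median 1.71), and its median in the other 36 immunised libraries was 2.58. With the clock score as a covariate 2 genes were higher, Rtp4 (1.02 ± 0.147, limma adjusted p = 0.0419) and Oasl2 (0.93 ± 0.143, adjusted p = 0.0475), and 0 lower. In a fit of all 56 libraries with the neutrophil score as a covariate, Arntl was higher and Per3 lower. Of the 18 genes called in the main fit 0 were called there, and Rtp4 had a difference of 1.09 ± 0.235 (limma adjusted p = 0.0681).

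Each low-score group was also set against the same 4 no CIA libraries, so the 4 results share their controls. In anti-TNF paws 6 genes were higher and 0 lower (0.0415% of those tested were called), in anti-IL-6 paws 9 and 1 (0.0692%), in combination paws 8 and 0 (0.0553%) and in isotype paws 7 and 2 (0.0622%, with 0.0484% higher). Rtp4, Oasl2, Oas1a, Oas2 and Ifit1 were called in each of the 4. By library, Rtp4 had 9.29, 7.08, 7.46 and 7.27 FPKM in anti-TNF paws, 6.64, 5.14, 9.64 and 7.42 in anti-IL-6 paws, 6.44, 5.98, 8.49 and 5.33 in combination paws and 5.93, 6.31, 6.92 and 7.19 in isotype paws, against 1.76, 2.62, 3.00 and 1.79 in no CIA paws. Its log2 difference from no CIA was 1.43 in anti-TNF, 1.31 in anti-IL-6, 1.20 in combination and 1.22 in isotype paws, each with an SE of 0.160. The treatment groups overlap one another in Rtp4, and none overlaps no CIA.

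Oasl2 had 6.13, 4.63, 5.35 and 3.77 FPKM in anti-TNF paws, 4.29, 4.39, 5.76 and 3.64 in anti-IL-6 paws, 4.53, 3.47, 6.63 and 3.58 in combination paws and 4.09, 3.83, 4.54 and 5.09 in isotype paws, against 0.980, 1.52, 1.82 and 0.955 in no CIA paws. As for Rtp4, the treatments overlapped one another and none overlapped no CIA. Summed over the 4 comparisons there were 33 calls, against 3 when no CIA replicate 4 was left out, 5 when replicate 1 was, 8 when replicate 2 was, 180 when replicate 3 was, and 7 with the clock score as a covariate. Some genes were called in 1 group only. Per3, a period protein of the circadian clock, was lower in anti-IL-6 paws (log2 -1.40 ± 0.236, limma adjusted p = 0.0310), where Fosl1, a subunit of the AP-1 factor, was higher (1.40 ± 0.250, adjusted p = 0.0421). Ccl12, a chemokine that attracts monocytes, was higher in isotype paws (1.04 ± 0.180, adjusted p = 0.0376), and Tomm20, a receptor of mitochondrial protein import, in combination paws (0.38 ± 0.0617, adjusted p = 0.0237). Set against isotype, Fosl1 passed under anti-IL-6, while Per3 under anti-IL-6 (-0.95 ± 0.236, adjusted p = 0.112) and Tomm20 under the combination (0.12 ± 0.0617, adjusted p = 0.917) did not. Ccl12 did not pass against isotype under any antibody (adjusted p = 0.118 to 0.924).

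**Figure D3:**
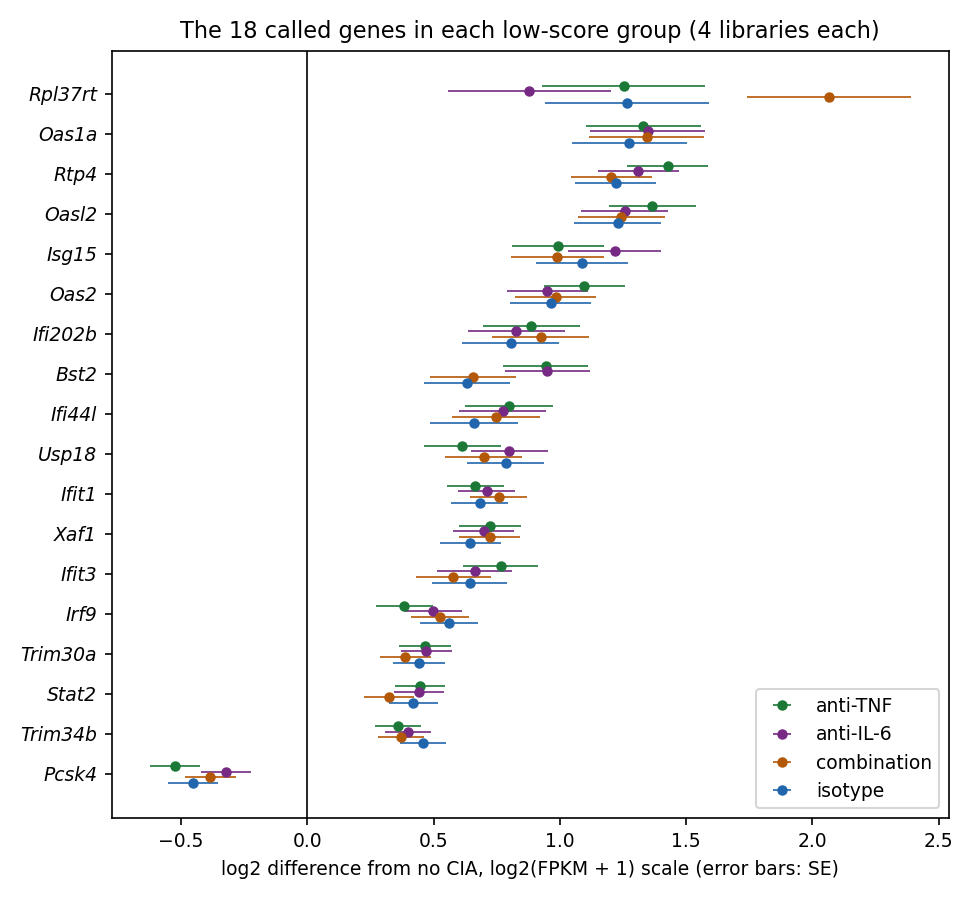
Log2 difference from no CIA (log2(FPKM + 1) scale, error bars SE) of the 18 called genes in each low-score group of 4 libraries. Points of the 4 treatments lie close together for most genes, with Rpl37rt in combination paws the farthest out at 2.06.

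TNF and IL-6 are the cytokines the antibodies bind; TNF acts through the receptors Tnfrsf1a and Tnfrsf1b, and IL-6 through Il6ra with the shared signalling chain Il6st. Of these 6 genes 0 passed the test in low-score paws, beside 0.124% of all genes called in either direction. Tnf had 0.673, 1.11 and 1.92 FPKM in low-score paws, against 0.907, 0.981, 1.02 and 0.747 FPKM in no CIA paws (log2 0.14 ± 0.112). Il6 was too low to be tested, with at most 0.599 FPKM in low-score and at most 0.141 FPKM in no CIA paws. Tnfrsf1a (0.12 ± 0.134), Tnfrsf1b (0.23 ± 0.157), Il6ra (0.03 ± 0.0715) and Il6st (0.20 ± 0.117) overlapped no CIA paws, each with a limma adjusted p of 1.

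Between low-score antibody and isotype paws few genes passed. Anti-TNF against isotype gave 0 calls (0% of those tested; 2877 genes at an unadjusted p under 0.05), and the only tool run was limma. Anti-IL-6 against isotype gave 11 higher (0.0761%) and 4 lower (0.0277%), 0.104% in all, and the combination against isotype gave 1 (0.00692%), as did the F test among the 4 groups (0.00692%). Gprc5a, an orphan receptor of epithelia, had 4.00, 4.74, 3.46 and 3.69 FPKM in anti-IL-6 paws, against 1.74, 1.59, 1.65 and 1.74 FPKM in isotype paws, with no overlap (log2 0.89 ± 0.131, limma adjusted p = 0.0198). Fosl1 had 3.72, 4.24, 9.03 and 7.95 FPKM in anti-IL-6 paws, against 2.27, 1.52, 1.31 and 1.30 FPKM in isotype paws, also with no overlap (1.42 ± 0.250, adjusted p = 0.0414).

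Abhd18, an abhydrolase-domain protein, was lower, with 1.46, 1.72, 1.56 and 1.52 FPKM in anti-IL-6 paws, against 2.05, 2.95, 2.62 and 2.90 FPKM in isotype paws (log2 -0.50 ± 0.0804, limma adjusted p = 0.0307). Tnfrsf12a, the receptor of the cytokine TWEAK, was 0.87 ± 0.155 higher in anti-IL-6 paws (adjusted p = 0.0414). The single call of the combination and of the F test was Gm12744, an antisense RNA on chromosome 4 whose reads may be mixed with those of its partner strand. It was listed at 0 in isotype replicates 2 and 8 and at a trace in replicate 13, and had 13.7 FPKM in replicate 5, against 57.0, 85.7, 143 and 81.3 FPKM in combination and 89.6, 89.9, 61.5 and 141 FPKM in anti-IL-6 paws. It had 13.3 to 102 FPKM in low-score anti-TNF paws and 31.6 to 68.1 FPKM in no CIA paws. Gm12744 was also called lower in isotype than in no CIA paws (limma adjusted p = 0.0180). The 4 isotype libraries kept were thus the low ones, though they overlapped anti-TNF paws, where the gene was not called against isotype. No fold is given for Gm12744, since a 0 in such a file can be a failed estimate.

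The number of calls against isotype moved with the libraries kept. With 3, 5 or 6 libraries kept per treatment, the comparisons with isotype gave 0 calls, and with 4 they gave 0 when isotype replicate 8 was left out and 138 when no CIA replicate 1 was. Of the 20 fits that left out 1 library, those without anti-TNF replicate 3 or 7 kept the summed count of 16 within 1.5 times. The library title gives anti-IL-6 replicate 2 the mouse number 20, which lies among the numbers of the anti-TNF mice. Its clock score of 0.94 stood above the -0.40 to 0.20 of the other low-score anti-IL-6 libraries. Of the anti-IL-6 libraries not kept, replicate 10 had 0.79 and the rest -0.67 to 0.17. Anti-TNF replicate 6, not kept, has the mouse number 2, among those of the anti-IL-6 mice. The treatment labels were followed, and an exchange of labels was not tested. Without anti-IL-6 replicate 2, 9 calls against isotype were made, Gprc5a passed (limma adjusted p = 0.0402) and Abhd18 did not (adjusted p = 0.0688). The mean clock score was 0.19 in anti-IL-6 and 1.49 in isotype paws, and with the clock score as a covariate neither gene passed (Gprc5a 0.70 ± 0.168, Abhd18 -0.45 ± 0.111, adjusted p = 0.509 for both).

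Genes more typical of interferon gamma had positive differences but did not pass the test. Of 13 tested members of the list of GTPases and chemokines, 0 were called (beside 0.124% of all genes in either direction). An unadjusted limma p under 0.05 was seen for 12, and all 13 were positive. The median log2 difference was 0.72, beside 0.59 for the interferon-induced list. Of the 13, 6 lay above every no CIA library in all 16 low-score libraries, beside 0.284% of all genes tested. Gbp3, a guanylate-binding protein, had 3.33, 4.69 and 11.4 FPKM in low-score paws, against a range of 1.98 to 3.20 FPKM in no CIA paws (0.83 ± 0.203, limma adjusted p = 0.176). Iigp1, an immunity-related GTPase, had 2.52, 3.25 and 16.0 FPKM in low-score paws, against 0.960 to 1.66 FPKM in no CIA paws (1.20 ± 0.347, adjusted p = 0.384). Neither overlapped no CIA paws. The list score was highest in anti-IL-6 replicate 11 (2.97) and isotype replicate 8 (2.69), and the other 14 low-score libraries lay between 1.53 and 2.38, against 1.22 to 1.51 in no CIA paws.

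Antigen presentation and complement genes had positive medians and no call, beside 0.124% of all genes called in either direction. The unadjusted limma p was under 0.05 for 11 of 15 class I, 8 of 10 class II and 11 of 15 complement genes. Over all genes tested it was under 0.05 for 806. Of 15 class I and immunoproteasome genes 0 were called, all were positive and the median was 0.52; B2m, the light chain of class I molecules, had 303, 404 and 632 FPKM in low-score paws, against 229 to 304 FPKM in no CIA paws (0.71 ± 0.184, limma adjusted p = 0.241). Of 10 class II genes 0 were called, with a median of 0.44; Cd74, the invariant chain, had 197, 311 and 493 FPKM in low-score paws, against 194 to 235 FPKM in no CIA paws (0.52 ± 0.168, adjusted p = 0.471). Of 15 complement genes 0 were called, 14 were positive and the median was 0.44; C1qb, a chain of the recognition molecule C1q, had 73.6, 107 and 159 FPKM in low-score paws, against 70.5 to 94.3 FPKM in no CIA paws (0.48 ± 0.155, adjusted p = 0.469). The ranges of B2m, Cd74 and C1qb all overlap.

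Macrophage markers had a positive median and no call, and 9 of the 19 tested had an unadjusted limma p under 0.05. Of 19 tested macrophage genes 0 were called, beside 0.124% of all genes called in either direction, 16 were positive and the median was 0.37. The list's summed level was 376 to 957 FPKM in low-score paws and 388 to 477 FPKM in no CIA paws. Its members were above 0 in at least 1 library each, and its part in the interferon result was not tested. Mrc1, a receptor of resident macrophages, had 7.88, 10.4 and 16.1 FPKM in low-score paws, against 7.69 to 8.48 FPKM in no CIA paws (0.37 ± 0.118, limma adjusted p = 0.465). Chemokines had a median of 0.40 over 16 genes, with 0 called and 9 at an unadjusted limma p under 0.05. Ccl8, a ligand for monocytes made by macrophages, had 48.9, 111 and 199 FPKM in low-score paws. It had 35.4 to 70.7 FPKM in no CIA paws (1.17 ± 0.255, limma adjusted p = 0.104). Fc receptors had a median of 0.47 over 5 genes, and T and NK cell genes of 0.18 over 5 (13 of 18 were below the filter). B and plasma cell genes had a median of 0.04 over 14 and mast cell genes of 0.22 over 11, with 0 called in any of these lists. In that order 4, 1, 1 and 6 genes had an unadjusted limma p under 0.05.

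Neutrophil genes outside the score had no call. Of 22 such genes 9 passed the filter and 0 were called, beside 0.124% of all genes called in either direction. Of the 9, 0 had an unadjusted limma p under 0.05, and the median difference was 0.41. The list's summed level, which its most abundant members set, was 616 to 1305 FPKM in low-score paws and 727 to 1024 FPKM in no CIA paws. Its library score, where members weigh alike, was 1.12 to 2.37 with a median of 1.52 in low-score paws. In no CIA paws that score was 1.20 to 1.39. The libraries were chosen by related neutrophil genes, so the choice itself lowers these values. Ngp, a granule protein of immature neutrophils, had 0.733, 5.29 and 30.3 FPKM in low-score paws, against 0.286 to 5.45 FPKM in no CIA paws (1.29 ± 0.668, limma adjusted p = 0.941). The range of Ngp was wide and reached above no CIA paws.

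Tissue remodelling and acute-phase genes had positive medians and no call. Fibrillar matrix and fibrosis genes had a median difference of 0.41 over 21 genes, and metalloproteinases and their inhibitors of 0.27 over 17. It was 0.14 over 14 osteoblast genes, 0.11 over 9 osteoclast genes, 0.10 over 15 cartilage genes and 0.20 over 20 STAT3-responsive genes. In each list 0 were called, beside 0.124% of all genes called in either direction. In that order 2, 3, 0, 0, 0 and 1 genes had an unadjusted limma p under 0.05, beside 806 of all genes tested. Col3a1, a fibrillar collagen of connective tissue, had 218, 327 and 1423 FPKM in low-score paws, against 220 to 281 FPKM in no CIA paws (0.57 ± 0.344, limma adjusted p = 1). The fibrillar score was 4.93 to 5.63 in the 7 libraries within the no CIA range of the neutrophil score and 5.32 to 7.39 in the other 9, with a median of 5.67, against 5.15 to 5.48 in no CIA paws. The highest was that of anti-TNF replicate 9, followed by 6.39 in the next library. Saa3, a local acute-phase protein, had 0.234, 4.06 and 80.8 FPKM in low-score paws, against 0.401 to 1.38 FPKM in no CIA paws (1.77 ± 0.855, adjusted p = 0.901). Its median in low-score paws lay above every no CIA library and its lowest value below them. Adipocyte genes had a median of -0.21 with 18 of 20 negative, and skeletal muscle genes of -0.18 with 18 of 20 negative, and 0 of these were called.

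For the other 36 immunised libraries, set against the same no CIA libraries, the medians were 2.64 for neutrophil genes outside the score, 1.92 for fibrillar matrix, 1.66 for metalloproteinases and 1.95 for osteoblast genes. Beside these, the interferon-induced list had 0.59 in low-score paws and 0.85 in the other 36 libraries, and the clock list -0.30 in low-score paws and -0.53 in the others. Both sets of values share their controls, and the difference between them was not tested, since the score chose which library fell into which set.

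**Figure D4:**
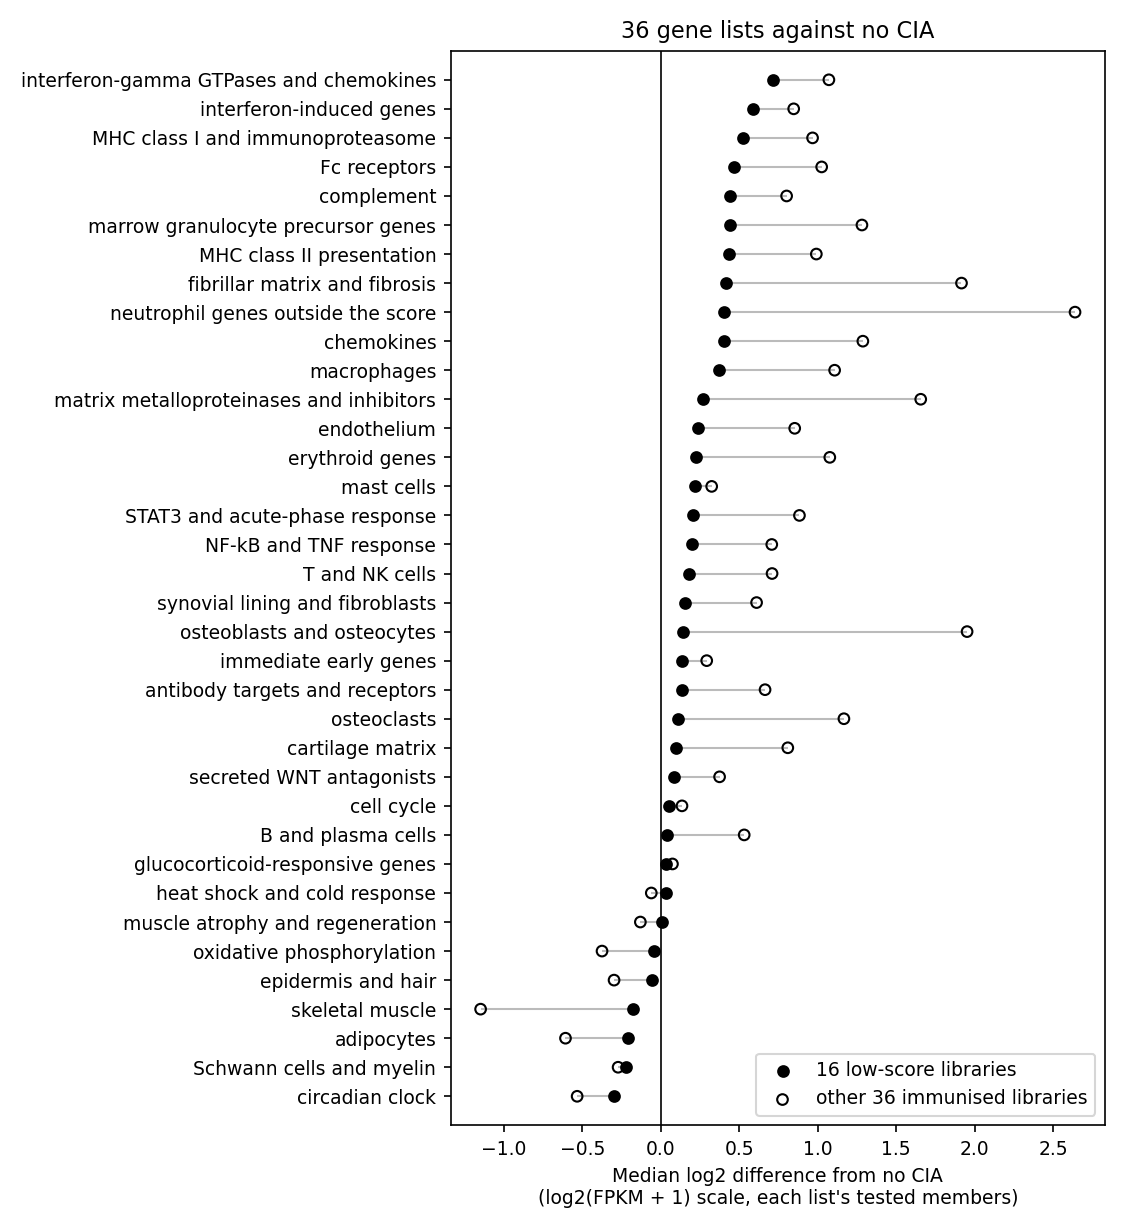
Median log2 difference from no CIA (log2(FPKM + 1) scale) over the tested members of 36 gene lists, in the 16 low-score libraries (filled) and the other 36 immunised libraries (open). The interferon-induced list stands at 0.59 in low-score paws, while neutrophil genes outside the score stand at 0.41 there and at 2.64 in the other immunised libraries.

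Genes of the circadian clock had a negative median and no call over all treatments. The clock's activators, among them Arntl and Npas2, drive the Period and Cryptochrome repressors and output factors such as Dbp and Tef. Dbp and Tef cycle roughly in antiphase to Arntl, while the clock score used here counts Cry1 on the side of Arntl. Of 20 clock genes tested 0 were called, beside 0.124% of all genes called in either direction. An unadjusted limma p under 0.05 was seen for 12, 16 were negative, and the median was -0.30. Per3 had 2.01, 4.74 and 11.0 FPKM in low-score paws, against 11.8, 13.6, 7.08 and 10.0 FPKM in no CIA paws, and just missed the threshold (-0.97 ± 0.187, limma adjusted p = 0.0512). Cry2, a cryptochrome repressor, had 13.0, 15.3 and 19.1 FPKM in low-score paws, against 19.4, 20.1, 18.1 and 21.1 FPKM in no CIA paws (-0.34 ± 0.0680, adjusted p = 0.0646). In Per3 2 of the 16 low-score libraries reached into the no CIA range, and in Cry2 1 did.

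Dbp, an output factor of the clock, varied widely between libraries. It had 24.4, 22.7, 57.4 and 48.6 FPKM in anti-TNF paws, 42.8, 13.8, 6.91 and 13.7 in anti-IL-6 paws, 47.6, 94.4, 18.5 and 105 in combination paws and 64.2, 118, 67.1 and 60.8 in isotype paws, against 112, 145, 64.9 and 88 in no CIA paws. Anti-TNF and anti-IL-6 paws all lay below no CIA paws, while combination and isotype paws overlapped them (over all 16, -1.31 ± 0.419, limma adjusted p = 0.465). Between treatments it did not pass (anti-IL-6 against isotype -2.19 ± 0.530, adjusted p = 0.111, and F test adjusted p = 0.206). Arntl had 7.03, 12.8 and 19.0 FPKM in low-score paws, against 7.48, 6.05, 9.55 and 7.23 FPKM in no CIA paws (0.69 ± 0.190, adjusted p = 0.342). Npas2, a partner of Arntl, had 0.933, 2.79 and 5.10 FPKM in low-score paws, against 1.27, 0.946, 1.60 and 1.05 FPKM in no CIA paws (0.76 ± 0.221, adjusted p = 0.386).

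A clock score, the mean of 10 genes driven by the activators minus the mean of 5 in antiphase, was 0.72 ± 0.36 in anti-TNF, 0.19 ± 0.56 in anti-IL-6, 1.18 ± 0.72 in combination and 1.49 ± 0.49 in isotype paws, against 1.93 ± 0.40 in no CIA paws (log2 units, SD, n = 4 each). The labels used here give no hour of collection. Of the 16 low-score libraries 3 lay within the no CIA range of 1.44 to 2.41, isotype replicate 5 and combination replicates 3 and 10, and the other 13 lay below it. The part of the clock in the interferon result was not tested beyond the fit with the clock score as a covariate. The E-box CACGTG, the site that clock activators bind, was in 6 of 21 promoters of clock genes, beside 7.15% of all promoters.

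**Figure D5:**
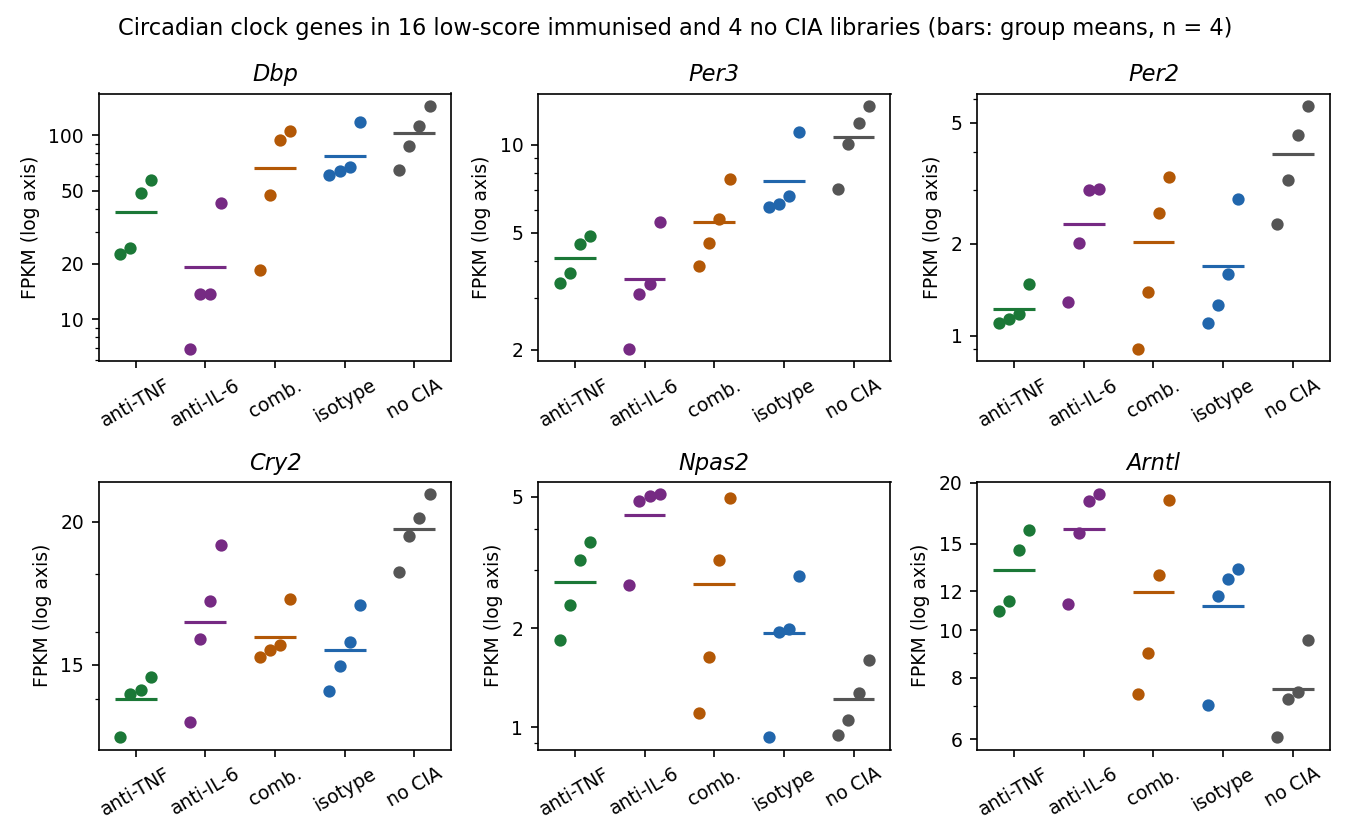
FPKM (log axis) of 6 circadian clock genes in each low-score and no CIA library by group; bars are group means of 4 libraries. The means of Per3 and Dbp are lowest in anti-IL-6 paws, and of the treated groups isotype comes closest to no CIA for both.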

How the data were processed

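Paired-end reads came from TruSeq Stranded mRNA libraries of whole front paws, per the labels' protocols. The authors deposited 1 table of FPKM values, a unit read from the values. DESeq2 is named in the submitters' processing notes without a version. No source used here states the aligner, build, annotation or use of strand. Among 53431 features there were 52244 Ensembl genes, and a symbol was matched to 52207. Depth was estimated from the steps of low FPKM values of single-exon genes of at least 400 bases. Whole multiples made up 75.0% to 81.4% of them (tolerance 0.05), too few to recover counts.

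Genes whose group mean reached 1 FPKM in at least 1 of the 5 groups were tested on log2(FPKM + 1) with limma 3.58.1 (R 4.3.3, trended and robust prior), with 20 libraries and 15 residual degrees of freedom. The contrast was the mean of the 4 low-score group means minus the no CIA mean. P-values are two-sided and Benjamini-Hochberg adjusted over all genes tested, with a threshold of 0.05, and differences understate the change of low genes. Each library is a separate mouse. On simulated shifts with independent noise for each gene, the fit returned the shifts put in. The simulation held no variation shared between genes and no choice of libraries by score. It therefore cannot speak to how the counts moved with libraries and covariates.

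The libraries and the 36 lists were chosen with earlier results of these data known. Genes were named by a rule: the antibody targets and receptors, the 8 called genes with the highest differences whose mean FPKM was at least 5 on the higher side, the 2 called members with the smallest p of each list with calls, and the 3 called genes with the smallest p for each antibody against isotype. Ifit1, Oas1a, Oas2, Usp18, Ifi44l, Stat2, Trim30a, Trim34b, Pcsk4, Fosl1, Tnfrsf12a and the examples of other lists were named after their values were seen. Promoter sequences are from RefSeq (GRCm38.p6), matched by symbol. Alternatives were other pseudocounts, filters, scaling, priors, library choices, covariates, and leaving out each library or group.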

Additional observations from a re-analysis of the deposited data

Results flagged for a closer look

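In 135 groups of 4 libraries examined for the named genes, 10 held a library far from the other 3 by Dixon's criterion, and chance alone gives about 1 in 20. Tnf was 1.92 FPKM in isotype replicate 13, against 1.08 to 1.11 in the other low-score isotype libraries. Il6 was 0.599 FPKM in anti-TNF replicate 9, against 0.0664 to 0.128 in the others, and 0.141 FPKM in no CIA replicate 4, against 0 to 0.0235. Il6ra was 4.57 FPKM in no CIA replicate 3, against 5.35 to 5.47. Ifit3 was 4.42 FPKM in isotype replicate 2, against 6.52 to 6.58 in the other isotype libraries, and this is the library that overlaps no CIA paws. Oas2 was 3.92 FPKM in anti-TNF replicate 3, against 1.99 to 2.32, and Usp18 was also 3.92 FPKM in that library, against 2.33 to 2.53. Gprc5a was 3.36 FPKM in no CIA replicate 4, against 2.31 to 2.37. Gm12744 was 31.6 FPKM in no CIA replicate 1, against 63.9 to 68.1, and 13.7 FPKM in isotype replicate 5 where the other isotype libraries were at or near 0.

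Of the genes called against isotype between low-score groups, the named ones with the smallest p were Gm12744, Gprc5a and Abhd18. Gm12744 had at least 61.5 FPKM in anti-IL-6 paws (limma adjusted p = 0.00875) and at least 57.0 FPKM in combination paws (adjusted p = 0.0105), against 0 to 13.7 FPKM in isotype paws, and no fold is given over libraries listed at 0. Gprc5a differed by 0.89 under anti-IL-6 (log2, adjusted p = 0.0198) and Abhd18 by -0.50 under anti-IL-6 (adjusted p = 0.0307).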

How the results depend on the processing

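The counts of called genes moved with most choices, and Rtp4 and Oasl2 were still called in all settings but the fit of 56 libraries with the neutrophil score (adjusted p = 0.0681 and 0.0991 there). Counts of genes higher and lower against no CIA, 17 and 1 as reported, were 28 and 3 when the pseudocount was 0.1, 6 and 0 when it was 10, 8 and 2 when low genes were not filtered out, and 34 and 5 with median-of-ratios scaling. They were 9 and 0 with the 3 lowest libraries per treatment, 32 and 1 with 5, and 42 and 3 with 6. Without S100a8 or without Csf3r in the score, where 1 library was replaced, they were 13 and 0. They were 7 and 1 with the 7 libraries within the no CIA range, 1 and 1 with 56 libraries and the score as a covariate, 27 and 4 with muscle and epidermis covariates, and 2 and 0 with the clock covariate. Without the low-score anti-TNF group they were 34 and 3, without anti-IL-6 8 and 1, without the combination 12 and 0, and without isotype 8 and 1. With all 52 immunised libraries, an alternative chosen after seeing the data, they were 80 and 13. Of the 18 genes 17 were among them, but that fit holds the same 16 low-score and 4 no CIA libraries. With 56 libraries and the score as a covariate, 0 of the 18 genes were called.

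Leaving out 1 library at a time gave 7 to 26 genes higher and 0 to 7 lower: 7 when no CIA replicate 1 or 4 was left out, 8 for no CIA replicate 2, 9 without anti-IL-6 replicate 9, combination replicate 2 or isotype replicate 8, 10 without no CIA replicate 3, 11 without anti-IL-6 replicate 11 or isotype replicate 2 or 13, and 26 without anti-TNF replicate 13; 7 were lower without anti-TNF replicate 3. Rtp4, Oasl2, Ifit1, Oas2, Isg15, Oas1a and Xaf1 were called in all 20 of these fits, Bst2 and Usp18 in 17, Ifit3 in 12, Ifi202b and Irf9 in 10, Trim34b in 9, Ifi44l and Trim30a in 8, Pcsk4 in 7, and Rpl37rt and Stat2 in 4.

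Calls summed over the 4 groups against no CIA, 33 as reported, were 6 with pseudocount 10, 11 with no filter, 72 with median-of-ratios scaling, 9 and 68 with the 3 and 6 lowest libraries, 158 with muscle and epidermis covariates, 7 with the clock covariate, and 3 to 180 without 1 library (180 for no CIA replicate 3 and 3 for no CIA replicate 4). Calls summed over the 3 antibody groups against isotype, 16 as reported, were 32 with pseudocount 10, 4 with no filter, 137 with median-of-ratios scaling, 0 with the 3, 5 or 6 lowest libraries, 855 with muscle and epidermis covariates, and 0 to 138 without 1 library (0 without isotype replicate 8, 138 without no CIA replicate 1). The F test, 1 as reported, gave 2 with no filter or with the clock covariate, 0 with the 3, 5 or 6 lowest libraries, 278 with muscle and epidermis covariates, and 0 to 12 without 1 library. The causes of these shifts were not tested. The difference of Il6ra, near 0 as reported, changed sign to -0.00428 and -0.00927 with the 5 and 6 lowest libraries, -0.0815 with 56 libraries and the score, -0.00484 with the clock covariate, -0.00535 and -0.00314 without the combination and isotype groups, and -0.0252 without no CIA replicate 3 (up to 0.0473 without another library), and that of Tnfrsf1b to -0.13 with 56 libraries and the score. No paired analysis was possible because replicate numbers only count libraries as they were deposited and the columns carry none. With 4 no CIA libraries and no stated depth, differences in genes near the filter of 1 FPKM are the least certain.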

Other observations

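Of the 41 genes that lay above every no CIA library in all 16 low-score libraries, the following are on no list here and did not pass the test. They were named by no set rule after their values were seen. Their values are from the main limma fit, and they were not counted or tested as a set. Of the 19 tested members of the macrophage list, 0 were among the 41. Spi1, the transcription factor PU.1 of myeloid cells, had 5.44, 7.61 and 14.5 FPKM as the lowest, median and highest value in low-score paws, against a range of 4.55 to 5.43 FPKM in no CIA paws (log2 0.55 ± 0.170, limma adjusted p = 0.431). Siglec1, a sialic acid receptor of macrophages that interferon also induces, had 0.637, 0.991 and 1.66 FPKM in low-score paws, against 0.368 to 0.530 FPKM in no CIA paws (0.49 ± 0.101, adjusted p = 0.0805). Aif1, a calcium-binding protein of macrophages, had 4.91, 6.87 and 16.5 FPKM in low-score paws, against 3.76 to 4.79 FPKM in no CIA paws (0.60 ± 0.198, adjusted p = 0.506). Pld4, a nuclease of phagocyte lysosomes, had 9.95, 14.9 and 23.1 FPKM in low-score paws, against 7.43 to 8.92 FPKM in no CIA paws (0.71 ± 0.164, adjusted p = 0.131).

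Parp9 and Dtx3l, partner proteins of the DNA damage and interferon responses, were also separate. Parp9 had 4.46, 5.76 and 7.42 FPKM in low-score paws, against 3.77 to 4.37 FPKM in no CIA paws (log2 0.40 ± 0.0965, limma adjusted p = 0.171). Dtx3l had 2.00, 2.37 and 2.93 FPKM in low-score paws, against 1.52 to 1.91 FPKM in no CIA paws (0.30 ± 0.0679, adjusted p = 0.123). Slfn2 and Slfn8, of the Schlafen family of interferon-induced proteins, had differences of 0.68 ± 0.150 and 0.47 ± 0.105 (adjusted p = 0.114 and 0.115).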
